A study of Arabidopsis thaliana with 2 samples.

Results

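Abscisic acid (ABA) synthesis and catabolism were examined through 10 genes of Arabidopsis thaliana, chosen by gene ID. They were ABA1, NCED3, NCED4, NCED5, NCED9, ABA2, AAO3, ABA3, CYP707A1 and CYP707A3. The enzymes of all but NCED4 take part in making or inactivating the hormone, and NCED4 is a relative of the other NCED genes. The table of the series lists 18345 genes, and 9 of the 10 were among them. NCED9 had no row, so it has no value here. Leaves of 2-week-old plants were taken after 24 h at 4 °C, and RNA was sequenced from 1 library of the mutant npr1-1 and 1 library of the wild type Col-0. npr1-1 carries a point mutation in NPR1, a transcriptional co-activator of salicylic acid responses, and it is the only allele the labels give for that group. Both groups had long days under light of 90 µmol m-2 s-1, lowered to 40 µmol m-2 s-1 during the cold, and their labels differ by genotype alone. Warm-grown plants were not analysed here: the values compare genotypes in the cold and measure no response to cold. Nothing says how many plants made up a library.

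ABA is a plant hormone of drought, cold and seed dormancy. It is cut out of carotenoids. Zeaxanthin epoxidase (ABA1) makes violaxanthin in the plastid, and 9-cis-epoxycarotenoid dioxygenases (the NCED enzymes, except NCED4) cleave its 9-cis derivatives to xanthoxin. ABA2 turns xanthoxin into abscisic aldehyde in the cytosol. The aldehyde oxidase AAO3, with a cofactor that ABA3 supplies, then makes ABA. The cleavage is regarded as the rate-limiting step, with NCED3 as the main stress-induced dioxygenase of leaves. ABA is inactivated chiefly by the CYP707A cytochrome P450 enzymes, which hydroxylate it at the 8′ position.

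Depth was even, with 50976521 reads recovered for npr1-1 and 50864103 for Col-0. Values are CPM, which sum to 1000000 over the listed genes of a library. With 1 library per genotype there was no replicate check and no p-value was computed. Intervals given with ratios are 95% intervals of counting error only and leave out the spread between plants. In bulk leaf RNA, fewer cells of a type and less RNA per cell cannot be told apart. The mutated gene NPR1 had 954 reads in npr1-1 and 1120 reads in Col-0, which does not check a point mutation. Leaf mesophyll markers were abundant, with summed levels of 36843 CPM in npr1-1 and 32393 CPM in Col-0 over 4 of 4 markers. All 4 were higher in npr1-1, by 0.03 to 0.40 on the log2(CPM + 1) scale, where 59.0% of all genes past a minimum of 5 CPM were lower. None of the 3 seed and none of the 3 flower markers was listed. The root marker BGLU23 had 48.81 CPM in npr1-1 and 47.24 CPM in Col-0, and the meristem marker STM 2.688 CPM in npr1-1 and 2.536 CPM in Col-0.

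The 2 genes past the minimum level with the largest differences encode a cleavage enzyme, NCED3, and a catabolic enzyme, CYP707A1, and both were lower in npr1-1. NCED3 stood at 50.34 CPM in npr1-1 and 76.87 CPM in Col-0, and CYP707A1 at 9.004 CPM in npr1-1 and 15.53 CPM in Col-0. Transcripts for the steps before and after the cleavage, ABA1, ABA2, AAO3 and ABA3, had small differences, from -0.15 to -0.11 on the log2(CPM + 1) scale (npr1-1 minus Col-0). The median of all genes past the minimum was -0.05, and the counting intervals of the ABA2 and ABA3 ratios included 1. NCED4 was the only gene of the set past the 5 CPM minimum that was higher in npr1-1, and its enzyme cleaves carotenoids that do not lead to ABA.

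Counts cover genes that reached 5 CPM in npr1-1, in Col-0 or in both, as 7 of the 10 did. NCED5 and CYP707A3 fell short of it, and NCED9 was not listed. A 2-fold difference on the log2(CPM + 1) scale was reached by 0 of the 7, and by 0.730% of all 13976 genes past the minimum (0.529% lower and 0.200% higher in npr1-1). At 1.5-fold, 2 of the 7 were lower, NCED3 and CYP707A1, and 0 were higher, against 2.06% of all genes lower and 0.909% higher, 2.97% together. A difference below 0 was found for 6 of the 7 and for 59.0% of all genes. The median of the 7 was -0.15, and that of all genes past the minimum was -0.05. NCED3 lay at the edge of the 1.5-fold line: under median-ratio or trimmed-mean scaling, which moved the median of all genes by 0.04, its difference was -0.56 and CYP707A1 alone remained past 1.5-fold.

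**Figure D1:**
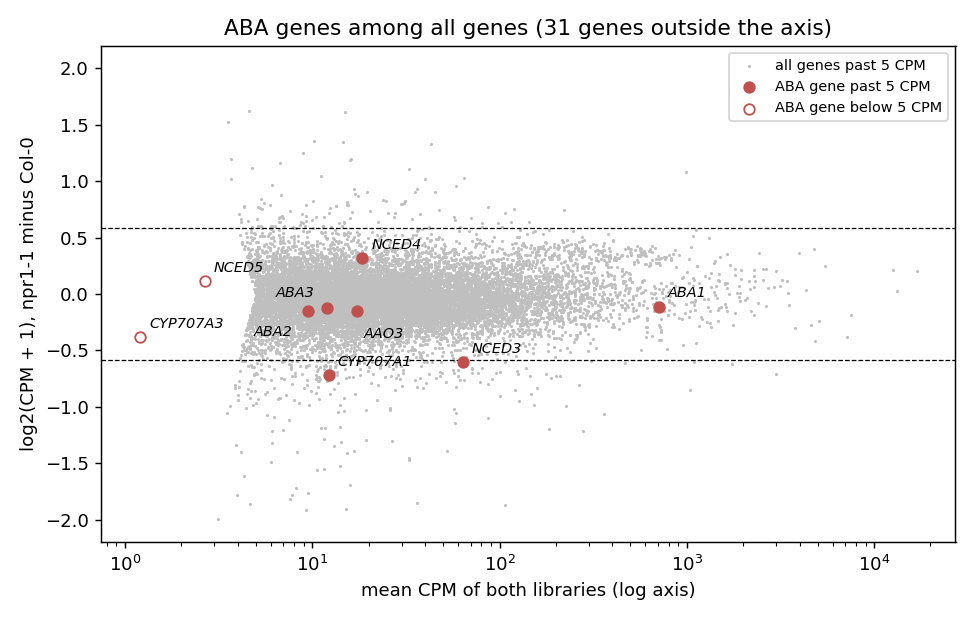
Each grey point is a gene that reached 5 CPM in either library, with the mean CPM of both libraries on a log x axis and the difference in log2(CPM + 1), npr1-1 minus Col-0, on the y axis. Filled red points are the 7 ABA genes past the minimum and open points the 2 below it; dashed lines mark 1.5-fold, which NCED3 at -0.60 and CYP707A1 at -0.72 pass, and 31 genes lie outside the axis.

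ABA1 (AT5G67030, chromosome 5, 26753510 to 26757236, minus strand, TAIR10, 16 exons) is the only zeaxanthin epoxidase gene and was the most abundant of the set. It had 34836 reads in npr1-1 and 37603 reads in Col-0, or 683.4 and 739.3 CPM. The ratio of npr1-1 to Col-0 CPM was 0.924 (0.911 to 0.938). At this depth the interval leaves out 1, yet the difference was an ordinary one in size: 36.7% of all genes past the minimum had a difference as low or lower. The difference of -0.11 became -0.07 under either scaling and -0.02 once the trend of the difference with transcript length was subtracted.

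The NCED genes of the set share a structure that the choice of genes did not use. NCED3, NCED4, NCED5 and NCED9 each have 1 exon in the RefSeq annotation. The other 6 genes have between 2 and 20 in the first RefSeq transcript. This structure is not particular to the set: NCED2 and NCED6, outside it, also have 1 exon each. NCED3 (AT3G14440, chromosome 3, 4831288 to 4833599, minus strand) had 2566 reads in npr1-1 and 3910 reads in Col-0. Its ratio was 0.655, from 0.623 to 0.688, and 1.92% of all genes had a difference as low or lower. NCED5 (AT1G30100, chromosome 1, 10571340 to 10573365, plus strand), which also contributes to stress-induced ABA, had 144 reads in npr1-1 and 128 reads in Col-0. Its ratio of 1.12 had an interval from 0.879 to 1.44, so a difference was not detectable at this depth. The counting intervals of the NCED3 and NCED5 ratios did not overlap, and NCED3 made up 94.7% of the reads of both genes in npr1-1 and 96.8% in Col-0. Summed, NCED3 and NCED5 stood at 53.2 CPM in npr1-1 and 79.4 CPM in Col-0.

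NCED4 (AT4G19170, chromosome 4, 10481786 to 10483857, plus strand), also called CCD4, belongs to the dioxygenase family but cleaves carotenoids that do not lead to ABA. It had 1048 reads in npr1-1 and 828 reads in Col-0, or 20.56 and 16.28 CPM. The ratio was 1.26, from 1.15 to 1.39, on the other side of 1 from NCED3. Over the aligned coding bases NCED4 has 60.7% identity to NCED3, 64.1% to NCED5 and 64.3% to NCED9, while NCED3, NCED5 and NCED9 have 68.8% to 72.2% among themselves. This distance is not particular to NCED4: NCED6, a dioxygenase outside the set, has 63.3% to 64.3% identity to NCED3, NCED5 and NCED9. Little of these transcripts is repeated elsewhere: 0.815% of the 30-base words of the NCED3 transcript have a second copy in the genome, 0.444% of those of NCED5 and none of those of NCED4.

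The later steps were near each other in both libraries. ABA2 (AT1G52340, chromosome 1, 19489794 to 19491648, minus strand), the xanthoxin dehydrogenase, had 454 reads in npr1-1 and 510 reads in Col-0, a ratio of 0.888 from 0.781 to 1.01. A protein-coding gene and a long non-coding RNA are annotated on the opposite strand over 121 and 349 of its bases, and strand use in the counting is not given in the sources used here, so reads of these cannot be separated from ABA2. AAO3 (AT2G27150, chromosome 2, 11601754 to 11607161, plus strand) had 831 reads in npr1-1 and 928 reads in Col-0, a ratio of 0.893 from 0.813 to 0.982. ABA3 (AT1G16540, chromosome 1, 5659415 to 5665449, plus strand), the sulfurase of the molybdenum cofactor that AAO3 needs, had 581 reads in npr1-1 and 636 reads in Col-0, a ratio of 0.912 from 0.813 to 1.02. The intervals of ABA2 and ABA3 include 1, and that of AAO3 ends just below it.

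**Figure D2:**
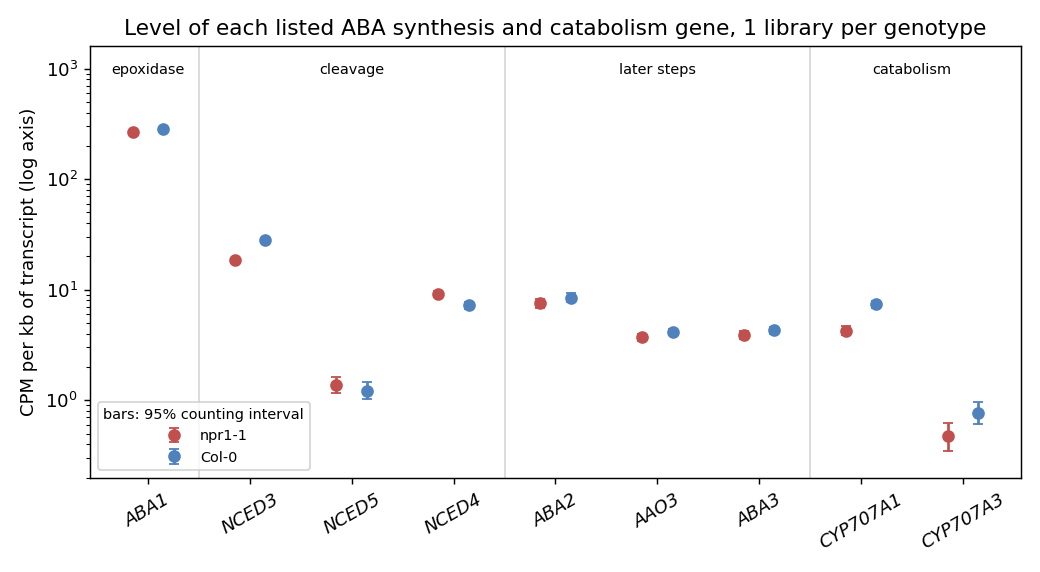
Level of each listed gene in CPM per kb of transcript on a log axis, with npr1-1 in red and Col-0 in blue, 1 library each, ordered by step; bars are 95% counting intervals and are mostly smaller than the points. ABA1 stands above all other genes at 264 in npr1-1 and 285 in Col-0, and CYP707A3 lowest at 0.473 in npr1-1 and 0.767 in Col-0.

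Levels of different genes were compared per kb of the first RefSeq transcript. ABA1, at 264 CPM per kb in npr1-1 and 285 in Col-0, was followed in both libraries by NCED3, at 18.4 in npr1-1 and 28.2 in Col-0. In npr1-1 the order went on with NCED4 at 9.09, ABA2 at 7.52, CYP707A1 at 4.26, ABA3 at 3.91 and AAO3 at 3.70, and the intervals of the last 3 overlapped their neighbours. In Col-0 it went on with ABA2 at 8.47, CYP707A1 at 7.35, NCED4 at 7.20, ABA3 at 4.29 and AAO3 at 4.14. There the intervals of ABA2 and CYP707A1, of CYP707A1 and NCED4, and of ABA3 and AAO3 overlapped. NCED5 and CYP707A3 were the lowest listed genes in both. Relative to ABA1, the level of NCED3 per kb was 0.0699 in npr1-1 and 0.0987 in Col-0, and relative to CYP707A1 it was 4.33 in npr1-1 and 3.83 in Col-0. Between libraries the NCED3 to CYP707A1 ratio differed 1.13-fold, with a counting interval from 0.995 to 1.28, so a difference between these genes in how much lower they were was not detectable at this depth.

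Catabolism was described over all 4 CYP707A genes, a grouping made after their values were seen. CYP707A1 (AT4G19230, chromosome 4, 10521379 to 10523961, plus strand), active in guard cells and seeds, had 459 reads in npr1-1 and 790 reads in Col-0. Its ratio was 0.580, from 0.516 to 0.651, and 1.22% of all genes had a difference as low or lower. CYP707A3 (AT5G45340, chromosome 5, 18368642 to 18370991, minus strand), known for ABA breakdown after rehydration, had 47 reads in npr1-1 and 76 reads in Col-0, a ratio of 0.617 from 0.420 to 0.899. Both genes of the set were thus lower in npr1-1. The other genes of the family, which were not in the set, were higher: CYP707A2, known for the fall of ABA in imbibed seeds, had 885 reads in npr1-1 and 719 reads in Col-0, a ratio of 1.23 from 1.11 to 1.36. CYP707A4 had 656 reads in npr1-1 and 465 reads in Col-0, a ratio of 1.41 from 1.25 to 1.59.

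Summed over the 4 genes, the libraries held 2047 reads in npr1-1 and 2050 reads in Col-0, a ratio of 0.996 from 0.937 to 1.06. CYP707A1 made up 22.4% of these reads in npr1-1 (exact Clopper-Pearson interval from 20.6 to 24.3) and 38.5% in Col-0 (from 36.4 to 40.7). CYP707A2 made up 43.2% in npr1-1 and 35.1% in Col-0, and CYP707A4 32.0% in npr1-1 and 22.7% in Col-0. CYP707A1 held the largest share in Col-0, with an interval that overlapped that of CYP707A2 (from 33.0 to 37.2), and the third in npr1-1. CYP707A3 made up 2.3% in npr1-1 and 3.71% in Col-0. Per kb of transcript the sums were 20.9 CPM in npr1-1 and 20.5 CPM in Col-0. The level of CYP707A1 per kb relative to CYP707A2 was 0.491 in npr1-1 and 1.04 in Col-0, and relative to CYP707A4 it was 0.571 in npr1-1 and 1.39 in Col-0. The family was grouped because its total was seen to be alike in both libraries while its makeup differed. The total, the shares and their intervals are thus a description and no independent evidence.

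**Figure D3:**
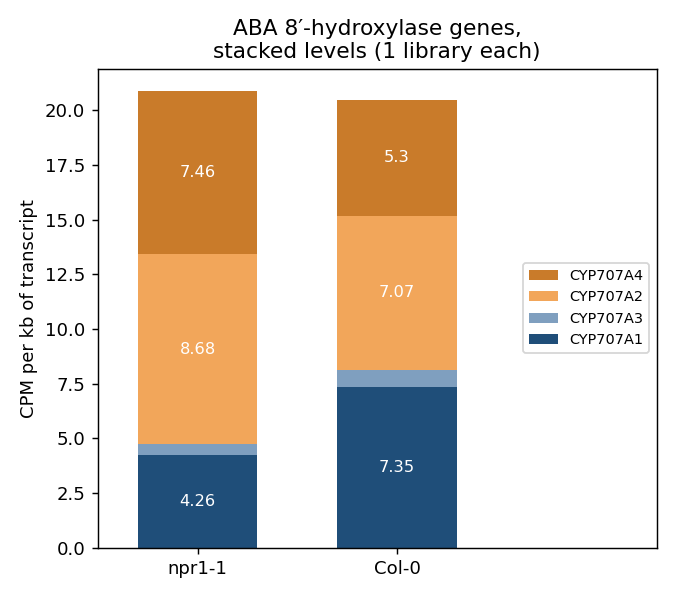
Stacked levels of the 4 CYP707A genes in CPM per kb of transcript, npr1-1 on the left and Col-0 on the right, 1 library each. The bars are nearly the same height, 20.9 and 20.5, while the CYP707A1 part is 4.26 in npr1-1 and 7.35 in Col-0.

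CYP707A1 and CYP707A3 are the closest pair of the family, with 82.5% identity over the aligned coding bases, against 63.4% to 66.0% in the other 5 pairs. Their longest identical coding run is 44 bases, and 0.816% of the 30-base words of CYP707A1 and 0.885% of those of CYP707A3 have a second copy in the genome. The pair also resembles each other upstream. The 250 bases before the RefSeq gene start (TAIR10.1) were read for the 4 genes, and a local alignment found 56 identical bases of 61 aligned between CYP707A1 and CYP707A3. The longest identical run there was 23 bases, whereas in the other 5 pairs it was 9 or 10. The stretches are shown because they belong to the genes that were both lower in npr1-1, with the G-box letters CACGTG in capitals, 5′ to 3′ on the strand of the gene, at chr4:10521198-10521258 (plus strand) and chr5:18371114-18371183 (minus strand):
CYP707A1: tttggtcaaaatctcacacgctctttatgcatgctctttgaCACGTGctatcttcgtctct
CYP707A3: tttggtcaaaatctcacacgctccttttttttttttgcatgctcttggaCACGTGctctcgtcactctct

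The G-box holds the ABRE core ACGTG on both strands, the letters that ABA-responsive bZIP factors are known to recognise. The upstream windows of the pair that was higher in npr1-1 are shown for contrast, with any ABRE core on either strand in capitals, at chr2:12499724-12499973 for CYP707A2 and chr3:6676522-6676771 for CYP707A4, both on the minus strand:
CYP707A2: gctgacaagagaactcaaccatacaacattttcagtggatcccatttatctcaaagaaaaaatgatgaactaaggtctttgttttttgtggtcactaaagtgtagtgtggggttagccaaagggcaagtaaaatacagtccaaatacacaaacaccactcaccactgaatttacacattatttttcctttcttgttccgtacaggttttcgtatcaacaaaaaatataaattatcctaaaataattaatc
CYP707A4: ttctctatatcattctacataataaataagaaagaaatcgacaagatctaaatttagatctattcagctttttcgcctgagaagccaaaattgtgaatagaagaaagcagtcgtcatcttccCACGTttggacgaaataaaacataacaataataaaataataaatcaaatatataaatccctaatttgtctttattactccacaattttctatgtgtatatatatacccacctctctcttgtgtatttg

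CYP707A2 has no such letters in this window and CYP707A4 has the core once, 128 bases before the start, without the full G-box. Across the 10 genes of the set, the core ACGTG was in 5 of 10 windows, those of ABA1, NCED9, ABA3, CYP707A1 and CYP707A3, and in 22.9% of the 27437 windows of protein-coding genes. The G-box CACGTG, which contains it, was in 4 of 10, those of NCED9, ABA3 (2 times), CYP707A1 and CYP707A3, and in 6.49% of all. The heat shock element core GAANNTTC was in 0 of 10 and in 9.55%, the CRT/DRE core CCGAC in 2 of 10 and in 12.0%, the core TGACG of TGA factors in 4 of 10 and in 18.6%, and the W-box core TTGAC in 8 of 10 and in 44.9%. Both strands were searched in each case. In the window of NCED3 the W-box core was the only one of the 6 found. Such matches are letters in a window and not measured binding. Of the genes with the ABRE core, ABA1 and ABA3 differed by -0.11 and -0.12, and CYP707A1 and CYP707A3 by -0.72 and -0.38. CYP707A3 lay below the 5 CPM minimum, and its difference was -0.64 with a pseudocount of 0.1 CPM and -0.13 with 5 CPM. Of the genes without the ABRE core, NCED3 differed by -0.60, ABA2 and AAO3 by -0.15 each, NCED5 by 0.12 and NCED4 by 0.32. A link between these letters and the differences was not tested.

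**Figure D4:**
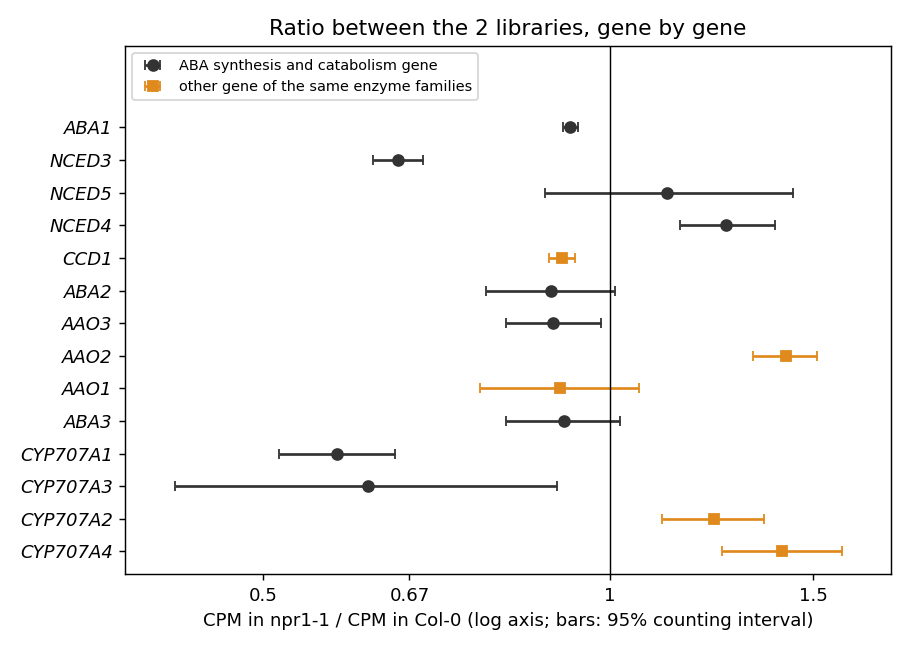
Ratio of CPM in npr1-1 to CPM in Col-0 on a log axis for the 9 listed ABA genes (circles) and 5 other genes of the same enzyme families (squares), with 95% counting intervals. CYP707A1 at 0.580 and CYP707A3 at 0.617 lie left of the line at 1, while CYP707A2 at 1.23 and CYP707A4 at 1.41 lie right of it.

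The other families of the pathway were followed by lists, chosen with earlier results of these libraries known. Of 10 further genes of the dioxygenase, CYP707A and aldehyde oxidase families, 5 were listed and past the minimum, with a median of 0.28. Of the 5, 2 were lower and 3 higher in npr1-1, where 59.0% of all genes were lower, and 0 were 1.5-fold apart, against 2.97% of all genes. The largest difference was that of AAO2, an aldehyde oxidase related to AAO3, at 48.24 CPM in npr1-1 and 33.99 CPM in Col-0, a ratio of 1.42 from 1.33 to 1.51. AAO3 thus made up 23.1% of the reads of AAO1, AAO2 and AAO3 in npr1-1 and 31.0% in Col-0. The other listed genes of that group were CCD1, a carotenoid dioxygenase outside the ABA route, at 209.8 CPM in npr1-1 and 230.9 CPM in Col-0, and AAO1 at 5.905 CPM in npr1-1 and 6.527 CPM in Col-0.

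Carotenoid supply, from phytoene synthase to the neoxanthin step, did not stand apart from all genes. All 14 genes of the list passed the minimum, 9 were lower and 5 higher in npr1-1, and 0 were 1.5-fold apart, against 2.97% of all genes, which leaves a count of 0 near the background. The median of -0.05 was that of all genes too, and the range ran from -0.39 to 0.32. The largest difference was that of LUT2, the lycopene epsilon-cyclase that leads to lutein instead of ABA, at 67.17 CPM in npr1-1 and 88.04 CPM in Col-0. Of 8 genes of the molybdenum cofactor and the xanthine dehydrogenases that also carry it, 4 were lower, 4 were higher and 0 were 1.5-fold apart, again near the background of 2.97%, and the median was -0.05. The largest difference in that list was that of XDH2, -0.32, at 28.8 CPM in npr1-1 and 36.17 CPM in Col-0.

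Conjugation, release and transport genes went both ways. Of 8 listed, 6 passed the minimum, 2 lower and 4 higher, and 1 of the 6 was 1.5-fold lower, against 2.06% of all genes. That gene was ABCG40, an ABA importer of the plasma membrane, with 179 reads in npr1-1 and 309 reads in Col-0, a ratio of 0.578 from 0.478 to 0.697. Among 4 transcription factors listed as upstream regulators of NCED3, 2 were lower and 2 were higher, and 0 were 1.5-fold apart, against 2.97% of all genes. The 2 higher ones, NGA1 and WRKY57, had ratios of 1.02 from 0.907 to 1.14 and 1.05 from 0.929 to 1.19. Both intervals include 1. ATAF1 was lower, with a ratio of 0.753 from 0.698 to 0.812. Whether these factors act on NCED3 in these plants was not tested. MYB96, which links ABA to drought responses, had the largest difference, at 23.95 CPM in npr1-1 and 32.77 CPM in Col-0, a ratio of 0.731 from 0.678 to 0.787.

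Genes that respond to ABA were lower as a group. All 10 past the minimum, of 11 listed, had differences below 0, as did 59.0% of all genes past the minimum, and the median was -0.49. At least 1.5-fold lower were 4 of the 10, against 2.06% of all genes, and 1 of the 10 was at least 2-fold lower, against 0.529% of all genes. The largest were HAI1, a clade A protein phosphatase, at 6.905 CPM in npr1-1 and 19.07 CPM in Col-0, RD29B, a hydrophilic stress protein, at 109.5 CPM in npr1-1 and 181.2 CPM in Col-0, and ABI2, a second phosphatase of the clade, at 31.49 CPM in npr1-1 and 52.08 CPM in Col-0. ABI5, below the minimum, had 251 reads in npr1-1 and 190 reads in Col-0. This list was chosen with earlier results of these libraries known, so its direction is a description and no independent evidence.

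**Figure D5:**
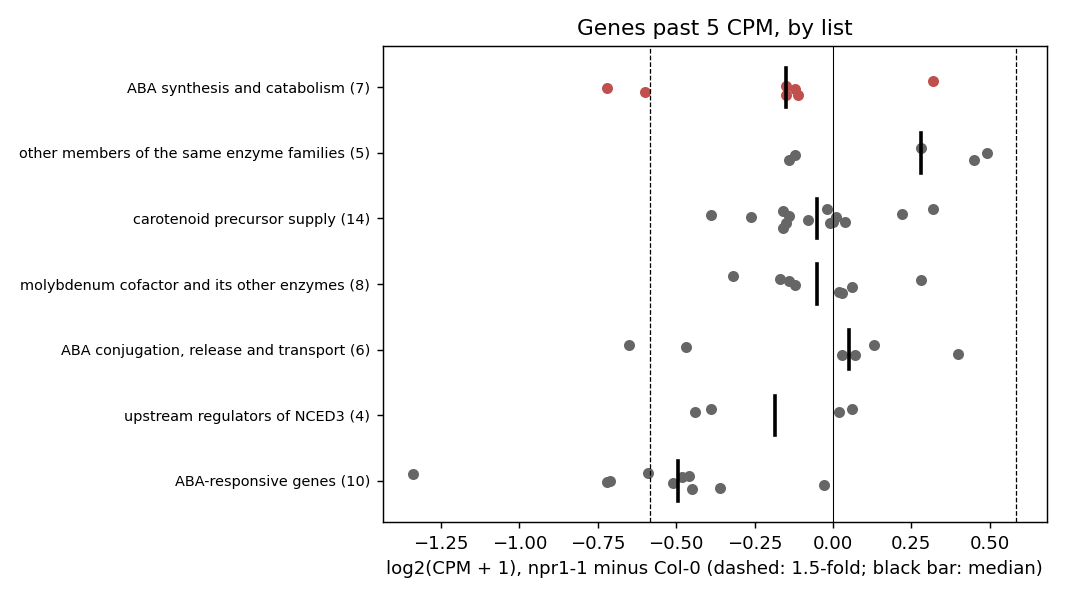
Difference in log2(CPM + 1), npr1-1 minus Col-0, for each gene past 5 CPM in 7 lists, with the number of genes in brackets; black bars are medians and dashed lines mark 1.5-fold. The median of the ABA synthesis and catabolism genes, at -0.15, lies between those of carotenoid supply, at -0.05, and of ABA-responsive genes, at -0.49. The other medians are -0.19 for upstream regulators of NCED3 and -0.05 for the molybdenum cofactor list. Conjugation, release and transport is at 0.05, and other genes of the same enzyme families at 0.28.

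NCED3 and AAO3 are known to be expressed in vascular tissue and CYP707A1 in guard cells, so markers of those cells were set beside them. The 4 phloem and vascular markers summed to 391 CPM in npr1-1 and 373 CPM in Col-0, with single differences from -0.02 to 0.28. The 5 guard cell markers summed to 83.9 CPM in npr1-1 and 85.1 CPM in Col-0, with differences from -0.30 for KAT1, a potassium channel, to 0.08. The vascular sum was thus higher in npr1-1. The guard cell sum was nearly the same in both, but its markers went both ways. KAT1 had a ratio of 0.801 from 0.715 to 0.897, and HT1, below the minimum, 0.779 from 0.584 to 1.04. MYB60, GC1 and FAMA had ratios of 1.02, 1.01 and 1.06. Whether the share of these cells differed was not tested.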

How the data were processed

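Leaf RNA of 1 npr1-1 and 1 Col-0 library was analysed, named by genotype. CPM per gene were deposited, written with a decimal comma per the file headers, and they sum to 1000000 per library. The submitters' processing notes list TopHat2, DESeq2 and TAIR10, with no version or role stated. The sources used here name no counter, strand setting, gene filter or pooling. CPM were used as deposited. All were whole multiples of 1 read within 0.01 reads (100% of values), and these reads gave the counting intervals (conditional binomial or Poisson, 95%). PCR copies are not separate molecules, so intervals cover counting error only.

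Differences are log2(CPM + 1), npr1-1 minus Col-0, for genes reaching 5 CPM (255 reads in npr1-1, 254 in Col-0) in either library. With 1 library per genotype no test was possible. RefSeq (TAIR10.1) gave transcript lengths, exons, coding and upstream sequence: 18154 listed nuclear genes had the same chromosome and strand in it, every pair of models overlapped, and 57.4% shared an end exactly. Protein sequences were not used here. Motifs were searched in 250 bases. The procedure was run on simulated counts with counting error only and planted changes larger than 2-fold. That run does not cover the spread between plants or differences of 1.5-fold. The genes and lists were chosen with earlier results of these data known. Named were the 10 genes, NPR1, and of each list up to 3 genes past 1.5-fold or else the largest difference. CYP707A2, CYP707A4, CCD1, AAO1, ABI5, ATAF1, NGA1, WRKY57, the guard cell markers and genes of the closing section were named after their values were seen. Python 3.11.15, numpy 2.4.6, pandas 2.3.3, scipy 1.17.1, Biopython 1.88 and matplotlib 3.10.9 were used.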

Additional observations from a re-analysis of the deposited data

How the results depend on the processing

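No paired analysis was possible because there was 1 library per genotype. None of the 9 listed genes changed sign under the scalings, pseudocounts and length correction tried, and at 2-fold the count of 0 stood under every setting except a threshold of 1.5-fold, which gave 2. The share of all genes, 0.730%, became 2.97% at 1.5-fold and 0.436% with a pseudocount of 5 CPM. The count of 2 at 1.5-fold, examined after the data were seen, was 1 under median-ratio scaling, trimmed-mean scaling and the length correction, where NCED3 stood at -0.56, -0.56 and -0.51, and 0 with a pseudocount of 5 CPM, where NCED3 had -0.57 and CYP707A1 -0.55. The median of conjugation and transport genes, 0.05, became -0.13 without a filter and -0.08 as a mean, and that of carotenoid supply, -0.05, became 0.00 after the length correction; dropping the filter adds 2 low genes, and otherwise the cause was not tested. For the 7 ABA synthesis and catabolism genes the median, -0.15, became -0.11 under either scaling, where that of all genes was -0.01. It was -0.05 after the length correction, and the mean in its place was -0.22. Of 45 recomputed differences 5 moved by more than their counting error, and of 36 recomputed levels per kb 8 did. The summed CYP707A ratio ran from 0.996 to 1.03. The spread between plants was not measured.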

Other observations

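Several genes of the ABA pathway lie close to one another on the chromosomes, and neighbours did not always have alike values. Among the listed pathway genes, 6 pairs are within 50 kb. NCED4 and CYP707A1 lie 37.5 kb apart on chromosome 4 with 5 listed genes between them, and differed by 0.32 and -0.72 (npr1-1 minus Col-0, log2(CPM + 1)). LUT2 and ABI2 lie 7.18 kb apart on chromosome 5, with differences of -0.39 and -0.71. CYP707A4 and ABF4, a bZIP factor of ABA responses, lie 10.6 kb apart on chromosome 3, at 0.45 and -0.03. ABA2 and BGLU18, a beta-glucosidase that releases ABA from its glucose ester, lie 23.5 kb apart on chromosome 1, at -0.15 and -0.47. AAO1 and CNX1, a gene of molybdenum cofactor synthesis, lie 5.80 kb apart on chromosome 5, both at -0.12. XDH1 and XDH2 are adjacent on chromosome 4, at -0.14 and -0.32.

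The beta-glucosidases that release ABA from its glucose ester differed in direction. BGLU18, of the endoplasmic reticulum, stood at 163.1 CPM in npr1-1 and 226.3 CPM in Col-0, a ratio of 0.721 from 0.701 to 0.741. BGLU33, of the vacuole, stood at 57.3 CPM in npr1-1 and 43.23 CPM in Col-0, a ratio of 1.33 from 1.25 to 1.40. In the carotenoid list the beta-carotene hydroxylase gene BCH1, at 74.68 CPM in npr1-1 and 59.77 CPM in Col-0, was higher in npr1-1, while its paralog BCH2 stood at 79.31 CPM in npr1-1 and 79.15 CPM in Col-0.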
